A study of Mus musculus with 6 samples.

Results

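The mitochondrial carriers of the SLC25 family were examined in mouse liver RNA-seq, as every row of the gene table whose symbol is Slc25a followed by a number. The rule found 47 of 22173 gene symbols, and 36 of the 47 had an FPKM (sequenced fragments divided by gene length and by library size) of at least 0.5 in at least 3 of the 6 libraries. These 36 were tested among 10681 genes that passed the same filter. The livers came from wild-type mice that went onto the HFHC diet at 6 weeks of age and stayed on it for 16 weeks. In the last 4 weeks 3 of them received the small molecule DDK, which the series title calls a limonoid, and the other 3 received vehicle, so both groups share the diet and no group on another diet was included. The study asked how DDK acts against metabolic dysfunction-associated steatohepatitis, and its title points to succinate dehydrogenase and to mitochondrial redox balance. The dose, sex, strain and full name of the diet are not given in the labels.

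SLC25 proteins are nuclear-encoded carriers, nearly all of them in the inner mitochondrial membrane, which metabolites cannot cross unaided. Each carrier alternates between an opening to the cytosol and an opening to the matrix, and most exchange one solute for another. In hepatocytes they pass ADP, phosphate and fatty acylcarnitines inward, pass ATP and citrate outward, and link the cytosolic and matrix steps of the urea cycle and of the malate-aspartate shuttle.

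Transcripts of 14 SLC25 carriers fell in DDK livers, and the largest change was that of Slc25a30, a relative of the uncoupling proteins. Slc25a42, an importer of coenzyme A, and Slc25a44, a carrier of branched-chain amino acids, also fell. The most abundant carriers, Slc25a47 and Slc25a5, did not pass the test as deposited, and no member passed it as higher. In limma's test on log2(FPKM + 1), with Benjamini-Hochberg adjustment over all genes and a threshold of 0.05, 14 of the 36 members fell (38.9%), 0 rose and 22 did not pass. Of all genes tested, 30.3% were called lower and 10.2% higher. At an unadjusted p under 0.05, 0 members were higher. With limma's voom on whole fragments 0 were also called higher, beside 9.64% of all genes. Library weights called 1 higher (Slc25a29, 2.78% of members), beside 14.7% of all genes. Slc25a30 had all DDK values under 0.5 and so passed the filter only through the vehicle libraries, where it is high. Without such genes, 13 of 35 members (37.1%) and 29.3% of all genes were lower. For 21 members all DDK libraries lay below all vehicle libraries, which is 58.3% of members against 39.2% of all genes. For 2 members all DDK libraries lay above, against 14.1% of all genes, and the groups overlapped for the other 13. The median log2 fold change was -0.36 over the members and -0.23 over all genes tested, a difference of -0.13. Members called lower numbered 8, 6 and 12 without DDK replicates 1, 2 and 3, and 18, 5 and 5 without vehicle replicates 1, 2 and 3. In percent these were 22.2, 16.7, 33.3, 50, 13.9 and 13.9 of the members, beside 20.2, 16.3, 26.0, 40.5, 20.8 and 17.3 of all genes, so the members' share was the lower one without vehicle replicate 2 or 3.

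The number of calls moved with the scaling. Median-ratio scaling (factors of 0.867 to 0.934 for DDK libraries, 1.02 to 1.19 for vehicle) moved the median of all genes to -0.01 and that of the members to -0.09, and 5 members were then lower and 4 higher. The background under that scaling was 16.2% of genes called lower and 18.0% called higher, so the family's share of lower genes (13.9%) was then close to that of all genes. Other scalings gave other balances: quantile normalization called 11 members lower (30.6%, beside 16.3% of all genes), and TPM, which scales each library to the same sum, called 25 lower (69.4%, beside 46.1%). Under median-ratio scaling Slc25a14, Slc25a30, Slc25a42, Slc25a44 and Slc25a48 were the 5 lower members, and Slc25a26, Slc25a29, Slc25a34 and Slc25a38 were the 4 higher ones. Without a filter on low values, Slc25a14, Slc25a21, Slc25a46 and Slc25a48 lost their calls (adjusted p 0.0624 to 0.0752). Quantile normalization ended the calls of Slc25a14, Slc25a16, Slc25a21, Slc25a46 and Slc25a51 (0.0519 to 0.343). Gene length correction ended those of Slc25a10, Slc25a14, Slc25a16, Slc25a21, Slc25a22, Slc25a23, Slc25a46 and Slc25a51 (0.0641 to 0.628). Slc25a30, Slc25a42 and Slc25a44 passed the test under each of the 18 alternatives run. Of these members, Slc25a30 had passed the filter only through the vehicle libraries.

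**Figure D1:**
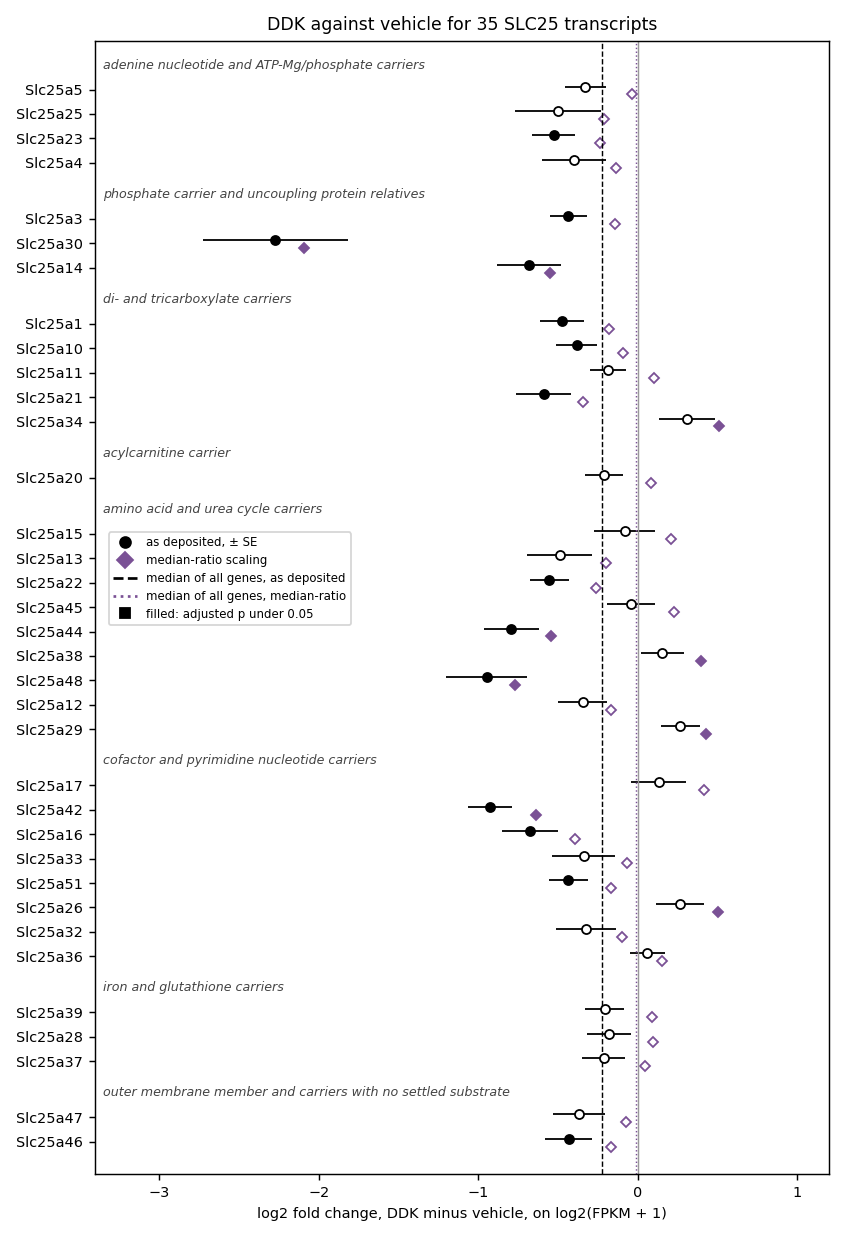
The log2 fold change, DDK minus vehicle on log2(FPKM + 1), is plotted on the horizontal axis for 35 of the tested members grouped by role, as deposited (black circles, bars ± SE from limma, n = 3 per group) and after median-ratio scaling (purple diamonds), with filled symbols for an adjusted p under 0.05 and vertical lines at the median of all genes (-0.23 as deposited, dashed, and -0.01 after scaling, dotted). Most circles lie left of 0, Slc25a30 lies farthest left at -2.27, and every diamond lies to the right of its circle.

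Libraries were deep, with 26576291 to 30237490 fragments behind DDK and 33963898 to 36105315 behind vehicle. Vehicle replicate 1 stood apart from the other vehicle libraries: on the first principal component, with 75.0% of the variance, it lay at 14.1, between the DDK libraries (-36.4 to -23.6) and vehicle replicates 2 and 3 (36.2 and 40.01). It was the lowest vehicle library for 21 of the 36 members (58.3%) and for 53.2% of all genes. Without it, 18 members (50%) and 40.5% of all genes were lower, 0 members were higher, and all 14 calls were retained. The 8 hepatocyte markers were abundant in every library, with a summed FPKM of 73084 to 75613 in DDK and 38687 to 57329 in vehicle. Of these 8, 4 rose, beside 10.2% of all genes called higher. The summed FPKM of macrophage markers was lower in DDK (85.6 to 217 against 351 to 627). So were the sums of stellate and fibroblast markers (59.0 to 82.3 against 133 to 172) and endothelial markers (54.7 to 71.6 against 81.3 to 119). Of the tested markers, 5 of 7, 6 of 8 and 4 of 8 fell in that order and 0 rose, beside 30.3% of all genes called lower. These values are as deposited, and the marker sums were not taken after median-ratio scaling. Of the other lists, 0 of 5 tested cholangiocyte markers fell and 1 rose, 1 of 5 red blood cell markers fell and 2 rose, and none of 4 skeletal muscle and 1 T and NK cell markers passed. Of the adipose markers the 1 tested fell, and Lep was at 0. In whole liver, fewer cells of a type and less RNA per cell cannot be told apart, and the part of these shifts in the SLC25 values was not tested.

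As a whole, the family's transcripts summed to an FPKM of 1759 to 1925 in DDK libraries and 2306 to 2466 in vehicle libraries. That was 0.284% to 0.327% of all FPKM in DDK and 0.447% to 0.466% in vehicle, with no overlap on either scale. Both scales carry the shift between groups that median-ratio scaling takes out (factors of 0.867 to 0.934 for DDK, 1.02 to 1.19 for vehicle). The sum was not compared after that scaling, which moved the members' median log2 fold change from -0.36 to -0.09. A few carriers made up most of the sum, since the 6 highest members held 69.7% to 74.6% of it in each library. Slc25a47 ranked first and Slc25a5 second in every library. Slc25a39 and Slc25a3 took the next places, with Slc25a39 ahead in all DDK libraries and in vehicle replicate 1 and Slc25a3 ahead in vehicle replicates 2 and 3. Slc25a20, Slc25a1 and Slc25a10 followed, at FPKM of 81.8 to 155, and their ranges overlapped. Ranks between members depend on the gene lengths behind the FPKM. That of Slc25a3 was 1718 bp, whereas the exons of all its transcripts in GENCODE M21 cover 5550 bp.

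**Figure D2:**
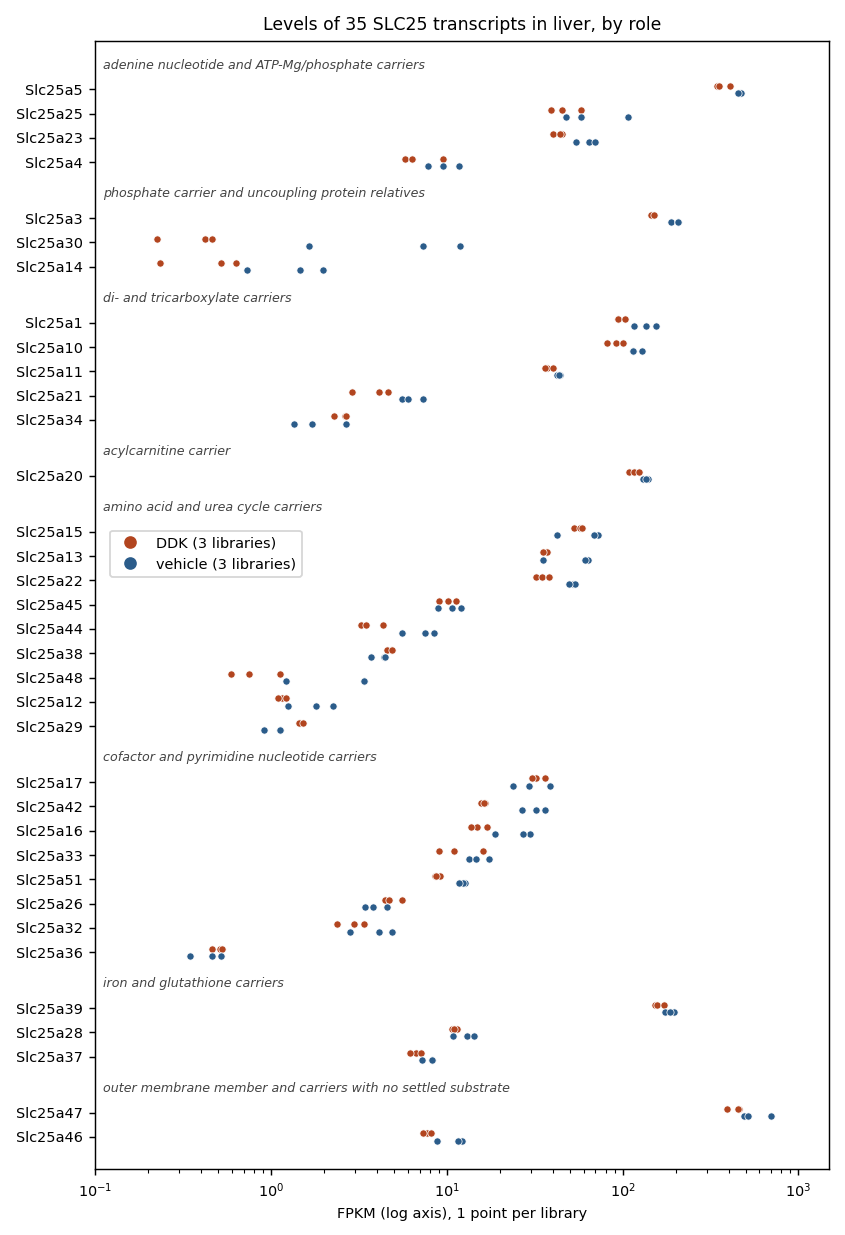
FPKM on a log axis is shown for 35 of the tested members by role, with 1 point per library (red DDK, blue vehicle, 3 libraries each). Levels run from 0.223 (Slc25a30 in DDK) to 696 (Slc25a47 in vehicle), and the DDK points of Slc25a30, Slc25a42, Slc25a44 and Slc25a22 lie clear of the vehicle points.

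Among the carriers of adenine nucleotides, 1 of the 4 tested members fell, and 0 were lower under median-ratio scaling. Counts by role, here and below, stand beside 30.3% of all genes called lower and 10.2% called higher, or 16.2% and 18.0% under median-ratio scaling. They are small and were not tested as sets. Slc25a5, the main ADP/ATP exchanger of liver, stood at an FPKM of 342, 353 and 407 in DDK replicates 1 to 3 and at 464, 469 and 451 in vehicle replicates 1 to 3. All DDK libraries were below all vehicle libraries, yet the log2 fold change of -0.33 ± 0.13 (SE) did not pass (adjusted p = 0.0632). Over the 18 alternatives the log2 fold change of Slc25a5 ran from -0.68 to -0.04, with a highest adjusted p of 0.879. It passed in 6 of the 18 alternatives: quantile normalization (-0.68, adjusted p = 0.00652), TPM (-0.57), scaling without the 20 most abundant genes (-0.44), gene length correction (-0.39), library weights (-0.37) and without DDK replicate 3 (-0.41, adjusted p = 0.0460). Slc25a4, the exchanger typical of heart and muscle, was much scarcer, at 9.45, 5.76 and 6.33 in DDK and 9.54, 7.82 and 11.8 in vehicle (log2 fold change -0.40, adjusted p = 0.131), and its groups overlapped. With TPM Slc25a4 was called lower (-0.64, adjusted p = 0.0321). The ratio of Slc25a5 to Slc25a4 within a library was 53.9 ± 15.4 (SD, n = 3) in DDK and 49.0 ± 10.9 in vehicle, also overlapping. A Slc25a5 pseudogene exists, and how fragments matching both copies were counted is not stated.

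Slc25a23 and Slc25a25 are calcium-regulated carriers that exchange ATP-Mg for phosphate and so adjust the nucleotide pool of the matrix. Slc25a23 fell, from 54.1, 64.6 and 69.4 in vehicle to 40.01, 45.1 and 43.8 in DDK (log2 fold change -0.53 ± 0.13, adjusted p = 0.0128), with no overlap. The call was lost after median-ratio scaling (adjusted p = 0.189) and without DDK replicate 1 (0.0587) or vehicle replicate 3 (0.0599). Slc25a25 was at 45.1, 39.1 and 57.7 in DDK and at 107, 58.2 and 47.3 in vehicle, where replicate 1 was far above the others and replicate 3 lay within the DDK range (log2 fold change -0.50 ± 0.27, adjusted p = 0.154). Without vehicle replicate 1 its log2 fold change was -0.17, and with TPM it was -0.74 (adjusted p = 0.0311). The ratio of Slc25a23 to Slc25a25 overlapped between groups (0.933 ± 0.202 in DDK and 1.03 ± 0.485 in vehicle).

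The phosphate carrier and the uncoupling protein relatives held the largest change, and all 3 tested members fell, of which Slc25a30 passed the filter only through the vehicle libraries. Of all genes tested, 30.3% were called lower. Under median-ratio scaling 2 of these 3 members were lower. Slc25a30, also called kidney mitochondrial carrier protein 1, lies at chr14:75760117-75787037 on the minus strand (GRCm38). Its FPKM was 0.223, 0.420 and 0.464 in DDK and 1.65, 7.36 and 11.9 in vehicle, which corresponds to 27, 47 and 59 fragments against 251, 1058 and 1702. The log2 fold change was -2.27 ± 0.45 (adjusted p = 0.00502). All DDK livers were below 0.5, while the vehicle livers were spread widely, replicate 1 being the lowest and replicate 3 the highest. Leaving out 1 library at a time gave log2 fold changes from -2.93 to -1.79, with the widest gap without vehicle replicate 1. After median-ratio scaling the value was -2.09 (adjusted p = 0.00637).

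Slc25a14, another uncoupling protein relative and best known from brain, was low in all libraries. It stood at 0.518, 0.232 and 0.628 in DDK (12 to 37 fragments) and at 0.725, 1.98 and 1.45 in vehicle (51 to 132 fragments), a log2 fold change of -0.68 ± 0.20 (adjusted p = 0.0230). DDK replicate 3 and vehicle replicate 1 came close to each other without overlapping. It did not pass when DDK replicate 2 or vehicle replicate 2 or 3 was left out (adjusted p 0.0759 to 0.0964), with no filter (0.0752), with quantile normalization (0.0719) or with gene length correction (0.0642).

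Slc25a3 imports the phosphate used by ATP synthase and also carries copper. It fell from 189, 207 and 206 in vehicle to 147, 146 and 151 in DDK (log2 fold change -0.44 ± 0.12, adjusted p = 0.0158). The DDK livers lay within a narrow band well below the lowest vehicle liver. After median-ratio scaling the log2 fold change was -0.14 (adjusted p = 0.431), and leaving out DDK replicate 1 or 2 or vehicle replicate 2 or 3 gave adjusted p values of 0.0528 to 0.0678.

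Of the 5 tested carriers of di- and tricarboxylates, 3 fell, whereas under median-ratio scaling 0 were lower and 1 was higher. Slc25a1 exports citrate, the source of cytosolic acetyl-CoA for fatty acid and sterol synthesis. It was at 93.7, 93.6 and 103 in DDK and at 155, 136 and 116 in vehicle (log2 fold change -0.48 ± 0.14, adjusted p = 0.0220). Vehicle replicate 1 was the highest library here, unlike for most members. Median-ratio scaling (adjusted p = 0.444) and leaving out DDK replicate 1 or 2 or vehicle replicate 2 (0.0577 to 0.0843) ended the call.

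Slc25a10 exchanges malate and succinate, the substrate of succinate dehydrogenase, for phosphate. It fell from 114, 115 and 129 in vehicle to 91.8, 99.9 and 81.8 in DDK (log2 fold change -0.38 ± 0.13, adjusted p = 0.0372), with no overlap. Its call was among the least firm: it was retained only without vehicle replicate 1 of the 6 libraries left out in turn (adjusted p 0.0616 to 0.136 for the other 5) and was lost after median-ratio scaling (log2 fold change -0.09, adjusted p = 0.657). Slc25a21, a carrier of oxoadipate from lysine breakdown, fell from 5.59, 7.31 and 6.05 to 4.12, 4.65 and 2.89 (log2 fold change -0.59 ± 0.18, adjusted p = 0.0242). It lost its call after median-ratio scaling (adjusted p = 0.154) and without DDK replicate 1 or 3 or vehicle replicate 2 or 3 (0.0539 to 0.0851).

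Slc25a11, the oxoglutarate-malate exchanger of the malate-aspartate shuttle, did not pass (37.2, 40.2 and 36.1 in DDK against 42.2, 43.8 and 43.4 in vehicle, log2 fold change -0.19, adjusted p = 0.212). Its groups did not overlap as deposited, and its sign turned after median-ratio scaling (0.10). With TPM Slc25a11 was called lower (-0.42, adjusted p = 0.0197). Slc25a34, whose substrate in liver is not settled, stood at 2.29, 2.62 and 2.68 in DDK and at 1.35, 1.71 and 2.65 in vehicle (log2 fold change 0.31, adjusted p = 0.184). It was called higher only after median-ratio scaling, quantile normalization or gene length correction (log2 fold change 0.51, adjusted p = 0.0274 with the first), and vehicle replicate 3 lay within the DDK range.

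Slc25a20, the carnitine-acylcarnitine translocase, takes long-chain acylcarnitines into the matrix between the steps of Cpt1a and Cpt2. It stood at 109, 116 and 124 in DDK and at 139, 130 and 136 in vehicle, without overlap. The log2 fold change of -0.21 ± 0.12 was near the median of all genes and did not pass (adjusted p = 0.166). It was 0.08 after median-ratio scaling, whereas TPM called Slc25a20 lower (-0.45, adjusted p = 0.0132). Its partners moved apart from each other. Cpt1a, which makes the acylcarnitines at the outer membrane, fell from 117, 160 and 160 to 55.3, 53.1 and 63.1 (log2 fold change -1.32 ± 0.15, adjusted p = 0.000698). Cpt2, which releases acyl-CoA in the matrix, rose from 114, 99.5 and 110 to 150, 150 and 136 (log2 fold change 0.43 ± 0.12, adjusted p = 0.0201, with 0.0592 to 0.0836 without DDK replicate 1 or 2 or vehicle replicate 2 or 3 and 0.178 with TPM). The ratio of Slc25a20 to Cpt1a was thus 2.04 ± 0.128 in DDK and 0.951 ± 0.210 in vehicle, and the ratio to Cpt2 was 0.803 ± 0.0956 and 1.25 ± 0.0439. Neither ratio overlapped between groups, and both were chosen after their values were seen, so they have no test.

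Carriers of amino acids and the urea cycle were the largest role group, and 3 of its 9 tested members fell. That is close to the share of all genes called lower (30.3%). Under median-ratio scaling 2 were lower and 2 higher. Slc25a44 imports branched-chain amino acids and lies at chr3:88410498-88425139 on the minus strand. It fell from 5.56, 8.40 and 7.50 in vehicle to 3.23, 3.46 and 4.35 in DDK (log2 fold change -0.79 ± 0.17, adjusted p = 0.00715). The highest DDK liver was below the lowest vehicle liver, and the value was -0.55 after median-ratio scaling (adjusted p = 0.0202). Slc25a22, a glutamate carrier, fell from 52.3, 53.3 and 49.2 to 32.1, 34.6 and 37.9 (log2 fold change -0.55 ± 0.12, adjusted p = 0.00706). Both groups were tight, and leaving out any 1 library kept the call (highest adjusted p = 0.0393), whereas median-ratio scaling did not (log2 fold change -0.27, adjusted p = 0.167).

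Slc25a48, linked to choline import, lies at chr13:56438355-56474239 on the plus strand. It stood at 0.751, 0.591 and 1.12 in DDK (40 to 86 fragments) and at 1.22, 3.35 and 3.39 in vehicle (112 to 293 fragments), a log2 fold change of -0.95 ± 0.25 (adjusted p = 0.0158). Vehicle replicate 1 was near DDK replicate 3, and the log2 fold change without it was -1.27. The adjusted p was 0.0524 to 0.0664 when DDK replicate 2 or vehicle replicate 2 or 3 was left out, whereas median-ratio scaling kept it (log2 fold change -0.77, adjusted p = 0.0257).

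The aspartate-glutamate carriers and the ornithine carrier tie the mitochondrion to the urea cycle. Slc25a13 (citrin), the liver form of the former, was at 36.7, 37.3 and 35.4 in DDK and at 35.4, 63.1 and 61.4 in vehicle. Vehicle replicate 1 was at the level of the DDK livers, and the other vehicle livers were well above it. The log2 fold change of -0.49 ± 0.20 did not pass (adjusted p = 0.0783), and without vehicle replicate 1 it was -0.76 (adjusted p = 0.00119). Leaving out any other single library gave adjusted p values of 0.145 to 0.251, with -0.35 without vehicle replicate 2 and -0.37 without vehicle replicate 3. With every library kept, Slc25a13 passed with TPM (adjusted p = 0.0236), scaling without the 20 most abundant genes (0.0446) and library weights (0.00209). Median-ratio scaling gave -0.20 (adjusted p = 0.417). Slc25a12 (aralar), the form of brain and muscle, stood at 1.16, 1.09 and 1.21 in DDK and at 1.25, 1.81 and 2.25 in vehicle (log2 fold change -0.35, adjusted p = 0.0964). The adjusted p was 0.0129 without vehicle replicate 1 and 0.145 to 0.302 without any other single library. It was 0.0420 with TPM, 0.0108 with library weights and 0.326 after median-ratio scaling. Slc25a13 was 31.7 ± 2.40 times Slc25a12 in DDK and 30.2 ± 4.18 times in vehicle, with overlap.

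Slc25a15, the ornithine-citrulline exchanger, was at 53.0, 57.0 and 58.9 in DDK and at 42.6, 72.7 and 68.5 in vehicle. Here the vehicle livers fell on both sides of the DDK livers, with replicate 1 below and replicates 2 and 3 above them. The log2 fold change was -0.08 (adjusted p = 0.744), or -0.32 without vehicle replicate 1 (adjusted p = 0.0371), and it was 0.21 after median-ratio scaling. Without any other single library the adjusted p was 0.699 to 0.964. The ratio of Slc25a13 to Slc25a15, a pair chosen after its values were seen, was 0.692, 0.653 and 0.601 in DDK and 0.831, 0.868 and 0.896 in vehicle. It did not overlap, and vehicle replicate 1 stood with its group on this measure.

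The remaining tested amino acid carriers did not pass as deposited. Slc25a29, a carrier of basic amino acids, was at 1.45, 1.44 and 1.52 in DDK and at 1.13, 0.909 and 1.12 in vehicle, with all DDK livers higher (log2 fold change 0.27 ± 0.12, adjusted p = 0.103, and 0.0478 with library weights). Slc25a38, which brings glycine in for heme synthesis, was at 4.79, 4.57 and 4.90 in DDK and at 3.72, 4.36 and 4.46 in vehicle, again all higher (log2 fold change 0.15, adjusted p = 0.377). After median-ratio scaling both passed (log2 fold change 0.43 with adjusted p = 0.0185 and 0.40 with adjusted p = 0.0249), but rescaling to TPM gave -0.04 for Slc25a38. Slc25a45, at 9.06 to 11.3 in DDK and 8.94 to 12.0 in vehicle, differed least of this group (log2 fold change -0.04, adjusted p = 0.834, turning to 0.23 after median-ratio scaling).

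**Figure D3:**
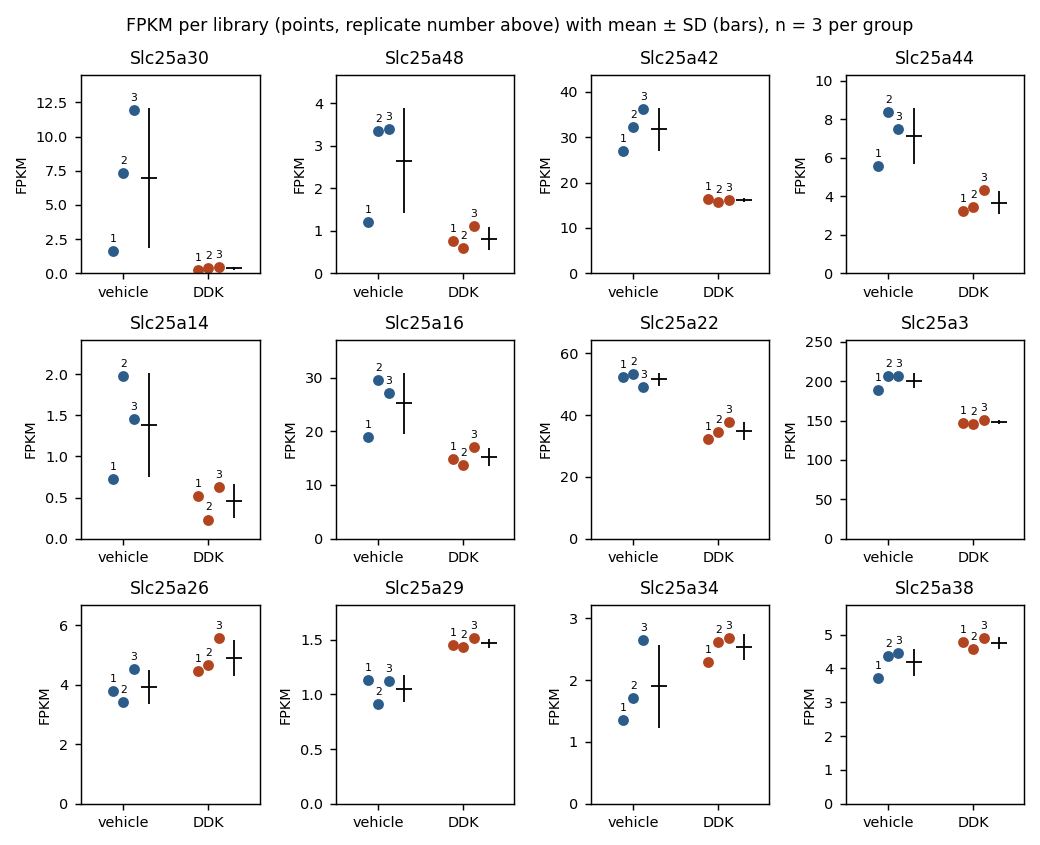
FPKM in each library is plotted for 12 members (points, replicate numbers above, blue vehicle and red DDK, with the mean ± SD beside them, n = 3 per group, each axis starting at 0): 8 called lower as deposited and the 4 called higher after median-ratio scaling. Vehicle replicate 1 is the lowest vehicle point for Slc25a30, Slc25a48, Slc25a42, Slc25a44, Slc25a14, Slc25a16 and Slc25a3, and DDK lies wholly above vehicle for Slc25a29 and Slc25a38 but not for Slc25a26 and Slc25a34.

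Carriers of cofactors and pyrimidine nucleotides included 9 tested members, of which 3 fell, again close to the share of all genes (30.3%). Under median-ratio scaling 1 was lower and 1 higher. Slc25a42 imports coenzyme A, the acyl carrier of fatty acid oxidation and of the citric acid cycle, and lies at chr8:70184340-70212305 on the minus strand. Its FPKM was 16.5, 15.7 and 16.3 in DDK and 26.9, 32.2 and 36.3 in vehicle (log2 fold change -0.92 ± 0.14, adjusted p = 0.00169). The DDK livers were almost alike, at 16.2 ± 0.396 (SD, n = 3), and every vehicle liver was well above them. The call held after median-ratio scaling (log2 fold change -0.64, adjusted p = 0.00507). Relative to Slc25a5 in the same library it was 0.0442 ± 0.00410 in DDK and 0.0690 ± 0.0113 in vehicle, without overlap, again a pair chosen after the values were seen.

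Slc25a16, a relative of Slc25a42 that is also linked to coenzyme A, fell from 18.8, 29.6 and 27.2 to 14.9, 13.7 and 17.0 (log2 fold change -0.68 ± 0.18, adjusted p = 0.0147). Vehicle replicate 1 was again the vehicle liver nearest to DDK. Its adjusted p was 0.0701 after median-ratio scaling and 0.0524 to 0.0647 without DDK replicate 2 or vehicle replicate 2 or 3. Slc25a51, the NAD carrier, fell from 12.6, 12.3 and 11.8 to 8.56, 9.14 and 8.67 (log2 fold change -0.44 ± 0.12, adjusted p = 0.0197). Both of its groups were tight and far apart for their spread, but the call was lost after median-ratio scaling (adjusted p = 0.353) and without DDK replicate 1 or 2 or vehicle replicate 2 or 3 (0.0502 to 0.0777).

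Slc25a26, the carrier of S-adenosylmethionine, had DDK values of 4.44, 4.67 and 5.57 and vehicle values of 3.77, 3.43 and 4.54. The groups overlapped by vehicle replicate 3 alone, and the log2 fold change of 0.26 (adjusted p = 0.179) passed only under median-ratio scaling (0.50, adjusted p = 0.0190), quantile normalization and gene length correction. Slc25a17, a peroxisomal carrier of coenzyme A and related cofactors, had a log2 fold change of 0.13 (30.5 to 36.2 in DDK, 23.8 to 38.6 in vehicle), which was -0.03 without vehicle replicate 1 and -0.10 after rescaling to TPM. Slc25a32, a carrier of folate and flavin cofactor, was at -0.33 (2.36 to 3.38 against 2.83 to 4.88), and passed without vehicle replicate 1 (-0.50, adjusted p = 0.0267). It did not pass without any other single library (adjusted p 0.152 to 0.489). Library weights also called Slc25a32 lower (-0.48, adjusted p = 0.0196), and over the 18 alternatives its value ran from -0.56 to -0.008.

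The pyrimidine nucleotide carriers Slc25a33 and Slc25a36 differed widely in level. Slc25a33 stood at 16.1, 8.99 and 10.9 in DDK and at 17.4, 13.4 and 14.6 in vehicle (log2 fold change -0.34, adjusted p = 0.190). DDK replicate 1 was within the vehicle range, and without it the value was -0.56 (adjusted p = 0.0488, against 0.180 to 0.556 without any other single library). TPM also called Slc25a33 lower (-0.58, adjusted p = 0.0355). Slc25a36 stood at 0.510, 0.527 and 0.463 in DDK and at 0.459, 0.347 and 0.519 in vehicle, with overlap (log2 fold change 0.06). The ratio of Slc25a33 to Slc25a36 was 24.1 ± 7.27 in DDK and 34.9 ± 5.84 in vehicle and overlapped.

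None of the 3 tested carriers of iron and glutathione passed as deposited. Slc25a37 and Slc25a28, mitoferrins 1 and 2, import iron for heme and iron-sulfur clusters. Slc25a37 was at 6.64, 6.19 and 7.12 in DDK and at 7.24, 8.20 and 8.21 in vehicle (log2 fold change -0.22, adjusted p = 0.211), just without overlap. Slc25a28 was at 11.4, 10.6 and 10.9 in DDK and at 10.8, 12.9 and 14.2 in vehicle, with overlap (log2 fold change -0.18, adjusted p = 0.314). Both turned to small positive values after median-ratio scaling (0.04 and 0.09). TPM called Slc25a37 lower (-0.45, adjusted p = 0.0451), whereas Slc25a28 passed in 0 of the 18 alternatives. By FPKM Slc25a28 exceeded Slc25a37 in every library, by 1.66 ± 0.105 times in DDK and 1.601 ± 0.124 times in vehicle. These FPKM rest on gene lengths of 1887 bp for Slc25a28 and 4676 bp for Slc25a37. Their exons in GENCODE M21 cover 3749 and 6021 bp, so the order of their levels may depend on the lengths used. Slc25a39, a carrier of glutathione and so of the matrix redox buffer, was at 153, 157 and 171 in DDK and at 196, 174 and 186 in vehicle (log2 fold change -0.21 ± 0.12, adjusted p = 0.189). Its groups did not overlap as deposited, and its log2 fold change was 0.09 after median-ratio scaling. After rescaling to TPM it was called lower (-0.44, adjusted p = 0.0137).

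Slc25a47, a carrier nearly confined to liver whose substrate is debated, was the most abundant member. It stood at 461, 392 and 454 in DDK and at 696, 492 and 519 in vehicle, so that all DDK livers were lower and vehicle replicate 1 was the highest. The log2 fold change of -0.37 ± 0.16 did not pass (adjusted p = 0.0917), and it was -0.22 without vehicle replicate 1 (adjusted p = 0.166). It passed with quantile normalization (-0.73, adjusted p = 0.00498), TPM (-0.61) and scaling without the 20 most abundant genes (-0.48). Over the 18 alternatives the log2 fold change of Slc25a47 ran from -0.73 to -0.08, with a highest adjusted p of 0.797. Slc25a46, which sits in the outer membrane and takes part in mitochondrial fusion and fission, fell from 8.83, 12.2 and 11.6 to 7.75, 7.28 and 8.09 (log2 fold change -0.43 ± 0.15, adjusted p = 0.0419). This was the weakest of the 14 calls: it was retained only without vehicle replicate 1 among the 6 left-out libraries (adjusted p 0.0659 to 0.140 for the other 5) and was lost after median-ratio scaling (adjusted p = 0.323).

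The NEBNext Ultra RNA kit named in the labels is not the directional form that marks strand, and of the 14 lower members 4 share exon bases with a gene on the opposite strand in GENCODE M21. Slc25a10 overlaps Gm11788 by 228 bp, Slc25a21 overlaps Pax9 by 189 bp, Slc25a23 overlaps Gm17168 by 168 bp and Slc25a46 overlaps B930094E09Rik by 383 bp. Fragments from these stretches cannot be told apart by strand. Slc25a30, Slc25a42, Slc25a44 and Slc25a48 had no such overlap.

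The 11 members that failed the filter were scarce in every library. Slc25a24, an ATP-Mg/phosphate carrier, was at 0.308, 0.245 and 0.371 in DDK and at 0.442, 0.692 and 1.13 in vehicle (22 to 38 fragments against 54 to 130), and its groups did not overlap. Slc25a35, which shares 1151 bp of exon with Rangrf on the opposite strand, was at 0.0365, 0.0790 and 0.469 in DDK and at 0.393, 0.553 and 0.619 in vehicle, and DDK replicate 3 lay within the vehicle range. Slc25a40, the other glutathione carrier, had 54 to 93 fragments in DDK and 94 to 142 in vehicle. Its FPKM of 0.0763 to 0.177 rests on a gene length of 23421 bp, whereas its exons in GENCODE M21 cover 8386 bp, so its level is not comparable with that of Slc25a39. Slc25a27, a brain uncoupling protein relative, had 17 to 30 fragments in DDK and 2 to 28 in vehicle. Slc25a2, the second ornithine carrier, had 2 to 17 against 1 to 9. Slc25a53 had 1 to 7 against 6 to 18, Slc25a43 at most 1 against at most 4, and Slc25a18, a second glutamate carrier, at most 2 against 0. Slc25a31, the ADP/ATP exchanger of testis, had 0 in each DDK library and 1, 4 and 4 in vehicle. Slc25a41 and Slc25a54 were listed at 0 in all 6 libraries. For a library, a count of 0 allows up to 3 fragments, which for a gene of 2000 bp is an FPKM of 0.0415 to 0.0564 and covers counting error only.

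Promoters are shown for the 3 members with the largest falls on log2(FPKM + 1). The order depends on the pseudocount: at 0.1 Slc25a14 (-1.39) fell by more than Slc25a42 (-0.96). Each is the stretch of 250 bases just before the RefSeq start of the gene, read 5′ to 3′ on the gene's strand from RefSeq on GRCm38.p6, with CCAAT and the GC box GGGCGG in capitals on either strand (ATTGG and CCGCCC on the other). Slc25a30 is at chr14:75787038-75787287 (minus strand), Slc25a42 at chr8:70212282-70212531 (minus strand) and Slc25a48 at chr13:56438105-56438354 (plus strand). The GENCODE position of Slc25a42 given above starts farther out, so that 24 bases of its window lie within that gene body.
Slc25a30: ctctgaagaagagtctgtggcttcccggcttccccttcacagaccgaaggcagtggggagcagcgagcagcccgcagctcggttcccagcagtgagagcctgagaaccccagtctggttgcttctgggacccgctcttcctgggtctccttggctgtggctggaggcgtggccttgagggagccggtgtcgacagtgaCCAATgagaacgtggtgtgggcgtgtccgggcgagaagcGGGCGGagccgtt
Slc25a42: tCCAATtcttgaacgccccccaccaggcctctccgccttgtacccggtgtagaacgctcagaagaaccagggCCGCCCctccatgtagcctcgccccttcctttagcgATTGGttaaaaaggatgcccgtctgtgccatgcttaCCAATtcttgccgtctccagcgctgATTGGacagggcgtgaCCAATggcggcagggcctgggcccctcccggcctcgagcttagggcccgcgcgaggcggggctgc
Slc25a48: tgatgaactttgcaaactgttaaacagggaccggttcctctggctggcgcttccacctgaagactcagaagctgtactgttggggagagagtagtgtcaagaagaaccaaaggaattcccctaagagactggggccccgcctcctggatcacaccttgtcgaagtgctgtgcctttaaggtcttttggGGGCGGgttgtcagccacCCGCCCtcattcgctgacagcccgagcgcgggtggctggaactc
Slc25a30 held 1 CCAAT and 1 GC box, Slc25a42 held 5 CCAAT and 1 GC box, and Slc25a48 held 2 GC boxes and no CCAAT. As many as 5 CCAAT occurred in 38 of 10968 windows of tested genes (0.346%). RefSeq windows were found for 36 of the 47 members, 29 of them tested, and a gene with several windows was counted once if any of them matched. CCAAT was in 17 of the 29 tested members (58.6%) and in 40.6% of 8611 tested genes with a window. The GC box was in 72.4% against 63.2%, and the E-box CACGTG was in 20.7% against 10.2%. CCGGAAG, the letters of the ETS site bound by NRF-2 (GABPA), was in 17.2% against 16.2%. AAGGTCA, a nuclear receptor half-site, was in 3.45% against 3.69%. GCGCATGCG, a core of the NRF1 site, was in 0 of the 29 members and in 3.57% of tested genes. TATAAA was in 3.45% against 8.20%, and TGACGTCA, the cyclic AMP response element, was in 6.90% against 2.90%. All were searched on both strands, none of the 8 motifs contains another, and a match describes letters in a window rather than binding.

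Other genes of mitochondrial transport, from a list of 31 with 26 tested, moved in both directions: 9 fell and 5 rose, beside 30.3% and 10.2% of all genes. Under median-ratio scaling 5 fell and 9 rose, beside 16.2% and 18.0% of all genes. Only 2 rose (7.69%, beside 5.71% to 6.64%) when DDK replicate 1 or 2 or vehicle replicate 2 or 3 was left out. Ucp2, an SLC25 protein under another symbol that is abundant in macrophages, fell from 41.0, 38.3 and 45.6 to 19.6, 15.8 and 17.4 (log2 fold change -1.20 ± 0.13, adjusted p = 0.000642). The macrophage markers given above were lower too, and a link between these falls was not tested. Mtch1, an outer-membrane SLC25 relative, fell by 0.71 on the log2 scale, while Mtch2 was at -0.05. Others that fell included Timm29 (-0.78) of the carrier translocase of the inner membrane, Crat (-0.72), which makes short-chain acylcarnitines, the calcium uniporter regulator Micu2 (-0.42), the pyruvate carrier subunit Mpc1 (-0.56) and the sideroflexin Sfxn5 (-0.53). Median-ratio scaling ended the calls of Crat (adjusted p = 0.140), Micu2 (0.478), Mpc1 (0.334) and Sfxn5 (0.153). Micu2 passed in 7 of the 18 alternatives and Sfxn5 in 9.

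Of 6 tested genes of carrier import, 3 rose and 1 fell (Timm29), beside 10.2% and 30.3% of all genes. The 3 that rose encode small TIM chaperones, which hand carriers such as the SLC25 proteins to that translocase. Timm9 rose from 35.3, 20.8 and 19.7 to 49.3, 54.2 and 38.9 (log2 fold change 0.92 ± 0.22, adjusted p = 0.00999), Timm13 by 0.61 and Timm10 by 0.45. These are short transcripts, and under gene length correction Timm10 was at -0.03. It also lost its call with TPM (adjusted p = 0.175) and with scaling without the 20 most abundant genes (0.0531). Leaving out DDK replicate 1 or 2 or vehicle replicate 2 or 3 ended the calls of Timm10 (adjusted p 0.0811 to 0.113) and Timm13 (0.0532 to 0.0706). The subunits of the pyruvate carrier moved apart: Mpc2 rose from 398, 262 and 277 to 607, 529 and 560 (log2 fold change 0.88 ± 0.17, adjusted p = 0.00465), whereas Mpc1 went from 117, 88.9 and 93.1 to 57.4, 60.4 and 86.0 (adjusted p = 0.0314, and 0.0689 to 0.119 without DDK replicate 1 or 2 or vehicle replicate 1 or 3). Their ratio within a library, chosen after the values were seen, was 8.61 ± 2.03 in DDK and 3.11 ± 0.255 in vehicle, without overlap. Voltage-dependent anion channels, the pores of the outer membrane, did not pass (Vdac1 -0.36, Vdac2 0.23, Vdac3 -0.15).

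**Figure D4:**
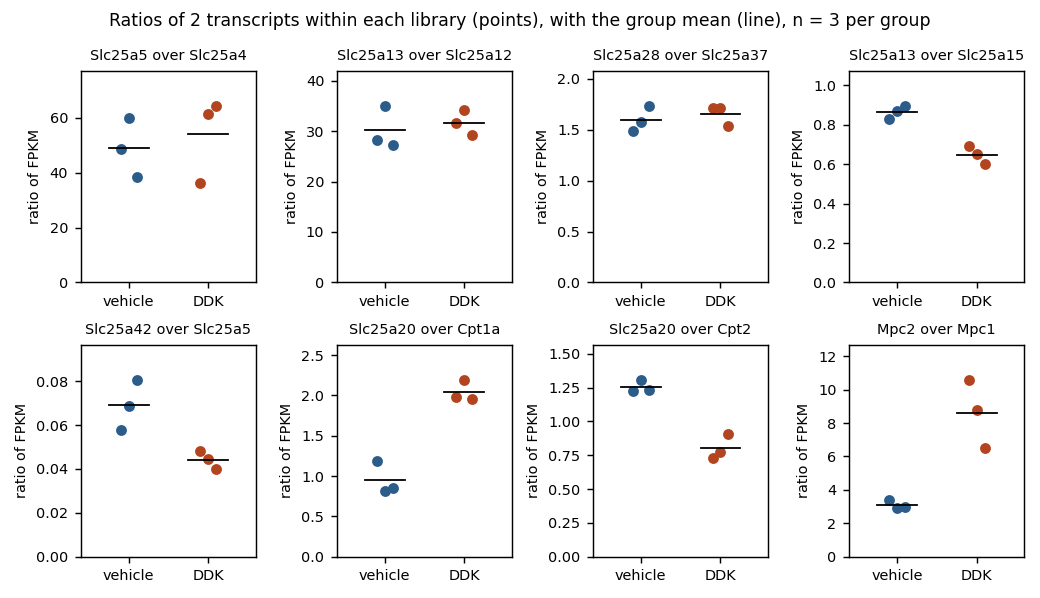
Ratios of the FPKM of a pair of transcripts within each library are plotted for 8 pairs (points, blue vehicle and red DDK, line at the group mean, n = 3 per group, axes from 0). The groups overlap for Slc25a5 over Slc25a4, Slc25a13 over Slc25a12 and Slc25a28 over Slc25a37, and they are separate for the 5 pairs chosen after the values were seen.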

How the data were processed

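Liver RNA of 6 mice was sequenced, 3 per group, and each library was grouped by its label. The series text counts 3 mice in each group, so replicates were taken as separate mice. The values are the authors' deposited FPKM per gene symbol, which per the submitters' processing notes rest on GRCm38 (mm10). The aligner, counting program and annotation are not given in the sources used here. Whole fragments and gene lengths were recovered from the FPKM (100% of 16573 genes above 0 whole within 0.0001 of a fragment). The chi-square per gene between replicates of a group was 20.0 to 131, beyond sampling noise.

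FPKM are not counts, so limma 3.58.1 in R 4.3.3 was run on log2(FPKM + 1), a scale that understates changes of low genes, with a variance trend and Benjamini-Hochberg adjustment over 10681 genes. The script was tested on simulated data with larger changes than most members showed, no outlying library and no shift between groups. That run does not cover the conditions of these calls. Errors are SE for log2 fold changes and SD for FPKM and ratios. Alternatives were pseudocounts of 0.1 and 0.5, median-ratio scaling, quantile normalization, TPM, scaling without the 20 most abundant genes, gene length correction (lowess, span 0.3), a minimum FPKM of 1 or none, library weights, a block for the replicate number, voom on whole fragments, and each library left out in turn. Members are named, but 1 tested member and 1 other transport gene, which stay in all counts, are not reported here. Values in every library are given for members past the threshold, the 6 most abundant and pairs of near relatives, and for others where a result turns on them. Positions are from GENCODE M21. Members and lists were chosen with earlier results of these data known.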

Additional observations from a re-analysis of the deposited data

How the results depend on the processing

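Over all genes, median-ratio scaling called 1924 higher and 1727 lower, quantile normalization 1886 and 1743, TPM 631 and 4929 and gene length correction 1722 and 1844, against 1093 and 3234 as deposited. SLC25 members called lower were 5 after median-ratio scaling (13.9%, beside 16.2% of all genes) and 25 with TPM (69.4%, beside 46.1%). Gene length correction called 7 lower (19.4%, beside 17.3%). Members called higher were 4 (11.1%) under each of median-ratio scaling, quantile normalization and gene length correction. Of all genes these called 18.0%, 17.7% and 16.1% higher, in that order. Library weights called 1 member higher (Slc25a29, 2.78%), beside 14.7% of all genes. Of the other transport genes, median-ratio scaling called 9 higher (34.6%, beside 18.0% of all genes) and 5 lower (19.2%, beside 16.2%). TPM called 3 higher (11.5%, beside 5.91%) and library weights 8 (30.8%, beside 14.7%). For gene length correction 5 were lower (19.2%, beside 17.3%). Leaving out 1 library at a time gave 610 to 1356 genes higher and 1738 to 4330 lower, 5 to 18 members lower, and 2 to 7 other transport genes higher. For members lower the counts were 8, 6 and 12 without DDK replicates 1, 2 and 3, and 18, 5 and 5 without vehicle replicates 1, 2 and 3. Fits without a library have fewer samples, and the cause of the moves with scaling was not tested.

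Signs turned for members near 0 in log2 fold change and for Timm10. Timm10 is not an SLC25 member and was called higher as deposited. After median-ratio scaling the values were 0.10 for Slc25a11, 0.21 for Slc25a15, 0.0796 for Slc25a20, 0.0929 for Slc25a28, 0.0441 for Slc25a37, 0.0861 for Slc25a39 and 0.23 for Slc25a45. After quantile normalization they were 0.0653 for Slc25a28, 0.0783 for Slc25a37 and 0.23 for Slc25a45. Gene length correction gave 0.22 for Slc25a15, 0.10 for Slc25a37, 0.052 for Slc25a39, 0.12 for Slc25a45 and -0.0304 for Timm10. TPM gave -0.10 for Slc25a17, -0.023 for Slc25a36 and -0.0434 for Slc25a38, and library weights gave -0.0160 for Slc25a17 and 0.0052 for Slc25a45. With 1 library left out, Slc25a15 ranged from -0.32 to 0.0568, Slc25a17 from -0.0317 to 0.31 and Slc25a45 from -0.15 to 0.0486. Of 628 values of single members under alternatives, 500 kept direction and side of the threshold, 64 lost the call, 40 gained it and 24 changed sign.

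With the replicate block, 12 members were lower (Slc25a10 at adjusted p = 0.0566 and Slc25a46 at 0.0564 lost their calls) and 0 higher, and all genes gave 1052 higher and 3082 lower. Same-numbered libraries did not deviate together (correlations 0.14, -0.15 and 0.06), and not every library correlated best with its own number. A filter at an FPKM of 1 left Slc25a14 and Slc25a36 untested.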
